A study of Mus musculus with 9 samples.

Results

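Transcripts of 10 killer cell lectin-like receptors were followed in natural killer (NK) cells grown from mouse bone marrow: Klrk1, Klrd1, Klrc1, Klrc2, Klrb1c, Klrb1b, Klrb1f, Klrg1, Klre1 and Klri2. They were taken by gene symbol from a deposited table of 16876 genes, which held all 10. The marrow, from C57BL/6 mice, spent its first 4 days in medium holding SCF at 30, IL-15 at 50, Flt3L at 10 and IL-7 at 1 ng/mL, followed by a week in which IL-2 at 20 and IL-15 at 50 ng/mL drove maturation. In the SIS3_TGFb group (n = 3) the cells had 10 µM of the Smad3 inhibitor SIS3 for 3 h and then 5 ng/mL TGF-β1 for 3 h. In the TGFb group (n = 3) they had only the 5 ng/mL TGF-β1 for 3 h, and in the Ctrl group (n = 3) they were untreated. The titles of the SIS3_TGFb libraries name SIS3 alone, while their treatment text gives TGF-β1 as well. The sources used here give neither a group with SIS3 alone nor a solvent control, so an effect of SIS3 without TGF-β1, or of its solvent, cannot be told apart from a change in the response to TGF-β1. Whether the libraries of 1 group came from different mice or culture wells is not in the labels, and p-values therefore measure only the spread among these libraries, which may be technical.

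Poly-A RNA was sequenced, and values are CPM (counts scaled to library size) with trimmed mean of M-values (TMM) factors, from libraries of 15714973 to 16718673 expected counts. The 10 markers of NK cells that are not among the receptors were all above 0, and summed to 16889 to 17119 CPM in SIS3_TGFb, 15531 to 16973 CPM in TGFb and 20327 to 21446 CPM in Ctrl. The sum was lower in every treated library than in every Ctrl library, with Gzmb (granzyme B) as its most abundant gene. Gzmb averaged 7353 CPM in SIS3_TGFb, 5622 in TGFb and 8278 in Ctrl, and Prf1 (perforin) 4621, 4874 and 6244. The genes did not move alike. Nkg7 averaged 413, 464 and 475 CPM in the same groups, and Eomes 367, 517 and 544. Tbx21 alone had higher means in both treated groups than in Ctrl, at 27.8, 23.2 and 21.2 CPM. In bulk RNA, fewer cells of a type and less RNA per cell cannot be told apart. Markers of T cells were low, at 11.9 to 14.3 CPM in SIS3_TGFb, 8.25 to 22.0 CPM in TGFb and 14.1 to 16.7 CPM in Ctrl summed over the 7 of 8 in the table. Within this sum Cd4 averaged 2.04 CPM in SIS3_TGFb, 2.41 in TGFb and 0.699 in Ctrl, while Cd3g averaged 4.71, 5.73 and 6.73. The lowest T cell sum in TGFb was in replicate 3, where Cd3d had 3 counts against 45 and 37 in replicates 1 and 2. Macrophage and monocyte markers (6 of 6 above 0, mostly Lyz2) summed to 706 to 1192 CPM in SIS3_TGFb, 623 to 976 CPM in TGFb and 872 to 1158 CPM in Ctrl. The highest sum in SIS3_TGFb and the lowest in TGFb were both in replicate 3, the library of each group that differed most from the other libraries of its group. Markers of dendritic cells (6 listed) summed to 394 to 703 CPM in SIS3_TGFb, 356 to 570 CPM in TGFb and 451 to 625 CPM in Ctrl, while those of B cells (4 listed) stayed near or below 1 CPM. Markers of mast cells and basophils (7 listed, Kit the most abundant) summed to 449 to 522 CPM in SIS3_TGFb, 477 to 526 CPM in TGFb and 486 to 514 CPM in Ctrl. This sum hides opposite differences. Kit averaged 261 CPM in SIS3_TGFb, 232 in TGFb and 177 in Ctrl, while Mcpt8 averaged 185, 217 and 249. The other listed genes also had lower means in TGFb than in Ctrl. In TGFb replicate 3, Prss34 (3.46 CPM), Gata2 (0.466), Ms4a2 (0.533) and Fcer1a (0) were far below replicates 1 and 2. Prss34, for example, had 34.2 and 21.0 CPM there. Erythroid and megakaryocyte markers (5 listed) summed to 29.0 to 32.3 CPM in SIS3_TGFb, 7.19 to 37.9 CPM in TGFb and 36.0 to 46.2 CPM in Ctrl. The ILC2 list (5 listed) separated the groups, at 191 to 213 CPM in SIS3_TGFb, 278 to 283 CPM in TGFb and 247 to 249.5 CPM in Ctrl. Icos made up 87.7% of this sum. Il5 and Il13 were at the floor in all groups, with 0 counts in SIS3_TGFb and at most 2 in any other library. The part of these other cells in the results below was not tested.

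NK cells read the surface of other cells through paired sets of activating and inhibitory receptors, many of them C-type lectin-like proteins encoded side by side in the NK gene complex. NKG2D (Klrk1) is an activating receptor for stress-induced ligands and signals through the adaptors DAP10 and DAP12, while CD94 (Klrd1) joins NKG2A (Klrc1) as an inhibitory receptor, or NKG2C (Klrc2) as an activating one, for the non-classical MHC molecule Qa-1. The NKR-P1 family holds NK1.1 (Klrb1c), an activating receptor and the standard marker of NK cells in C57BL/6 mice, and the inhibitory NKR-P1B (Klrb1b), and KLRG1 is an inhibitory receptor for cadherins found on mature NK cells. TGF-β is known to restrain NK cells, in part through the transcription factor Smad3.

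Inhibitory receptors of this kind carry an immunoreceptor tyrosine-based inhibitory motif (ITIM) in their tail inside the cell, which begins the protein. The first 180 coding bases of each receptor were searched for codons of an ITIM-type pattern, and 4 of the 10 genes held a match. They are shown because they set the inhibitory members beside NK1.1 at the level of the message, from GENCODE M21 models on GRCm38, chromosome 6, with the codons of the match in capitals. The matches begin at coding base 16 in Klrc1 and Klrb1b and at base 13 in Klrg1. In Klrb1c the match begins at base 157, in a gene model with a longer coding stretch before the match. For each gene the coding sequence of the longest transcript was taken. In that of Klrb1c an atg in the same reading frame stands just before the match. The distance of the match from the start therefore depends on the gene model. A match is a description of the letters and not evidence of a working motif.
Klrc1: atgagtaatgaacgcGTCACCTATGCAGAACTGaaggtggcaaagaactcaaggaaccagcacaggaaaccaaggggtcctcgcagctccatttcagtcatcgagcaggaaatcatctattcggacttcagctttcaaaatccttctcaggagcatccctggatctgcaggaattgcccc
Klrb1b: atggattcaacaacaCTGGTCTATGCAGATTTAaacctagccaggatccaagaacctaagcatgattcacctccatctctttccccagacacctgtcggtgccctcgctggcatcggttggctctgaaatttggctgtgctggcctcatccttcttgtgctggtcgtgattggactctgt
Klrg1: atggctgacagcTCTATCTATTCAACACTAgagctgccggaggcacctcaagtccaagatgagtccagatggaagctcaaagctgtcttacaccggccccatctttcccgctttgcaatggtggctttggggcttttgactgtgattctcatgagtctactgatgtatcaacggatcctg
Klrb1c: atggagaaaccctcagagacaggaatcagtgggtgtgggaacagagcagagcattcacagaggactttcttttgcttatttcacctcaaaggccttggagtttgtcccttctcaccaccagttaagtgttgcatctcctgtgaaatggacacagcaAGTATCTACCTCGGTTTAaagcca

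The promoters of Klrb1b and Klrb1c, adjacent among the tested genes and with transcripts that moved in opposite directions in TGFb versus Ctrl, are shown from the RefSeq table for GRCm38.p6, from 250 bases before to 50 bases after the start. Capitals mark the SMAD letters CAGAC and the RUNX letters TGTGGT, searched on both strands, with no overlap between the matches shown.
Klrb1b, chr6:128826266-128826565, minus strand: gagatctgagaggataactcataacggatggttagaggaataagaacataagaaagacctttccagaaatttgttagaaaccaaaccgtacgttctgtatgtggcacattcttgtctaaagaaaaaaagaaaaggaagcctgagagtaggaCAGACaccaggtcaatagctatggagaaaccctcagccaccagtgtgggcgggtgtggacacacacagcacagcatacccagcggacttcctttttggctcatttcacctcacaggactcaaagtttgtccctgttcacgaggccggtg
Klrb1c, chr6:128788592-128788891, minus strand: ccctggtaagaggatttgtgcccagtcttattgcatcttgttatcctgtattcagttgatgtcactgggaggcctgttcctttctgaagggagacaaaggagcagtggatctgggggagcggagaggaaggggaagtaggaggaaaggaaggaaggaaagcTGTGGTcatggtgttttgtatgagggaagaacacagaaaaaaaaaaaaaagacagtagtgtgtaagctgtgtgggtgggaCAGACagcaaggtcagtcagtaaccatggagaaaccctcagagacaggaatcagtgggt
Each promoter holds 1 match to CAGAC, which 49.6% of 32851 promoters of this length hold, and Klrb1c also holds TGTGGT, as do 16.8% of them. Neither holds the T-box letters TCACAC, found in 14.5% of promoters. Of the 10 receptors, 7 had a promoter in that table. TGTGGT was also found in those of Klrk1, Klrc1 and Klrc2 and in 1 of the 2 of Klre1, so it is not particular to Klrb1c. The table holds 2 overlapping promoters of Klrb1b, of which the first is shown. The promoter of Klrb1c was identical to the first at 55.6% and to the second at 48.5% of aligned bases, and that of Klrb1f at 66.8% and 64.9%. Promoters of receptors from different families gave values like those of Klrb1c, such as 57.8% for Klrc1 with Klrb1f. The first promoters of Klrb1b and Klre1 were identical at 48.4%. The coding sequences of Klrb1c and Klrb1b were identical at 86.7%.

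Of the 10 genes, 9 had enough counts to be tested, and Klrc2 did not. All comparisons come from 1 fit of 12212 genes in edgeR, and a gene is said to have risen or fallen where its quasi-likelihood test gave a Benjamini-Hochberg adjusted p below 0.05. With TGF-β1, 6 of the 9 passed: Klrk1, Klrd1, Klrb1c, Klrg1 and Klre1 fell and Klrb1b rose, where 34.3% of all genes tested passed in TGFb versus Ctrl (17.9% rose and 16.4% fell). With SIS3 before TGF-β1, 7 of the 9 passed against TGFb: Klrk1, Klrc1, Klrb1c, Klrb1b, Klre1 and Klri2 rose and Klrd1 fell, where 41.8% of all genes passed in SIS3_TGFb versus TGFb (21.2% rose and 20.6% fell). Against untreated cells, 6 of the 9 passed in SIS3_TGFb versus Ctrl, where 53.9% of all genes did (29% rose and 24.9% fell): Klrb1b, Klre1 and Klri2 rose and Klrd1, Klrb1f and Klrg1 fell. The median log2 change of the 9 genes was -0.21 in TGFb versus Ctrl, 0.22 in SIS3_TGFb versus TGFb and -0.02 in SIS3_TGFb versus Ctrl, against medians over all genes tested of -0.00357, 0.0122 and 0.0200 in the same comparisons. These comparisons share their TGFb or Ctrl libraries and are not independent of each other. Libraries of the groups compared did not overlap for any receptor that passed, and overlapped for every tested receptor that did not. Over all genes tested, the libraries did not overlap for 45% in TGFb versus Ctrl, 51.4% in SIS3_TGFb versus TGFb and 61.1% in SIS3_TGFb versus Ctrl.

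**Figure D1:**
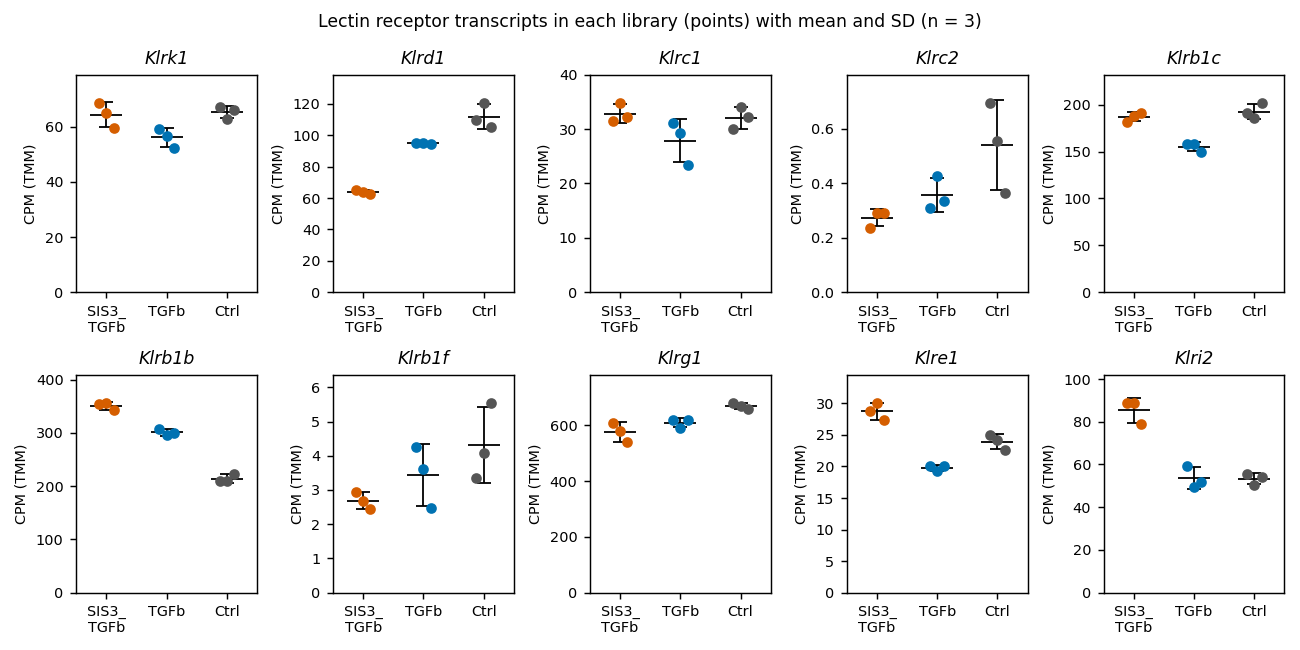
CPM of each of the 10 receptor transcripts (vertical axes, from 0) in SIS3_TGFb, TGFb and Ctrl cells; points are libraries, and bars the mean and SD (n = 3 per group). Klrd1 is lowest and Klrb1b highest in SIS3_TGFb, with no overlap between any of the 3 groups, while Klrk1 and Klrb1c are lowest in TGFb.

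Klrk1 encodes NKG2D and lies at chr6:129610323-129623903 on the minus strand (GRCm38.p6, Entrez 27007). Its level was 68.6, 65.0 and 59.6 CPM in SIS3_TGFb, 59.3, 56.8 and 52.5 CPM in TGFb, and 67.0, 62.7 and 66.0 CPM in Ctrl. The TGFb libraries were all lower than those of both other groups, by a narrow margin, and SIS3_TGFb and Ctrl overlapped. Klrk1 fell in TGFb versus Ctrl by 0.21 on the log2 scale (SE 0.058, edgeR adjusted p = 0.0094). It rose in SIS3_TGFb versus TGFb, by 0.20 (SE 0.058, edgeR adjusted p = 0.014), a call that did not pass without TGFb replicate 3 (adjusted p = 0.058) or without SIS3_TGFb replicate 1 (adjusted p = 0.080). In SIS3_TGFb versus Ctrl the difference was -0.02 (95% interval -0.14 to 0.10, edgeR adjusted p = 0.81).

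Klrd1, at chr6:129588092-129598775 on the plus strand (Entrez 16643), encodes CD94, the partner that NKG2A and NKG2C need at the cell surface. Klrd1 had 65.4, 63.8 and 62.9 CPM in SIS3_TGFb, 95.4, 95.0 and 94.5 CPM in TGFb, and 109.7, 121 and 106 CPM in Ctrl. The 3 groups were separate, with the lowest level in SIS3_TGFb and the highest in Ctrl. The fall was 0.24 in TGFb versus Ctrl (log2, SE 0.046, edgeR adjusted p = 0.00078). A further fall of 0.57 came with SIS3 in SIS3_TGFb versus TGFb (log2, SE 0.048, edgeR adjusted p = 2.1e-07). SIS3_TGFb cells thus had 0.572 times the Klrd1 level of Ctrl cells (log2 change -0.81, SE 0.048, edgeR adjusted p = 9.2e-10). Among the 9 receptors tested, Klrd1 was the one that fell in SIS3_TGFb versus TGFb.

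Klrc1 encodes the inhibitory chain NKG2A and lies at chr6:129666015-129682852 on the minus strand (Entrez 16641). Levels were 31.5, 34.8 and 32.2 CPM in SIS3_TGFb, 31.0, 29.2 and 23.4 CPM in TGFb, and 30.0, 34.1 and 32.1 CPM in Ctrl. TGFb replicate 3 was the lowest library, and the best separated pair of groups, SIS3_TGFb and TGFb, was parted by less than 1 CPM. In SIS3_TGFb versus TGFb the gene rose by 0.23 (log2, SE 0.086, edgeR adjusted p = 0.040). Without TGFb replicate 3 the difference was 0.12 (adjusted p = 0.18), and leaving out any SIS3_TGFb library, fitting those groups alone, or testing with DESeq2 (adjusted p = 0.067) also ended the call. Klrc1 did not pass in TGFb versus Ctrl, with a log2 difference of -0.20 (95% interval -0.38 to -0.01, not adjusted; edgeR adjusted p = 0.092), or in SIS3_TGFb versus Ctrl (0.03, 95% interval -0.15 to 0.21, edgeR adjusted p = 0.76). The -0.20 passed with upper-quartile scaling (-0.24, edgeR adjusted p = 0.042) and without TGFb replicate 1 (-0.28, adjusted p = 0.031).

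Klrc2, the gene of the activating chain NKG2C (chr6:129649602-129660737, minus strand, Entrez 16642), was close to the floor of the measurement. It had 4, 5.46 and 5.33 expected counts in SIS3_TGFb, 5.48, 7.15 and 5 in TGFb, and 10.51, 8.89 and 6.05 in Ctrl, and was left out by the filter on low counts. Tested with no filter, its log2 differences were -0.58 in TGFb versus Ctrl (edgeR adjusted p = 0.49), -0.38 in SIS3_TGFb versus TGFb (adjusted p = 0.68) and -0.96 in SIS3_TGFb versus Ctrl (adjusted p = 0.16), and no change was detectable at this depth. Klrc1 and Klrc2 share sequence: 14.6% of the 100-base windows of Klrc1 transcripts also occur in Klrc2, and their coding sequences were identical at 80.1% of aligned bases. The authors' counting could split such reads between them, and Klrc1 counts were not whole numbers in all 9 libraries.

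Klrb1c, the gene of NK1.1, lies at chr6:128778485-128788641 on the minus strand (Entrez 17059). It had 182, 188 and 191 CPM in SIS3_TGFb, 158, 158 and 149.8 CPM in TGFb, and 191, 185 and 202 CPM in Ctrl. As for Klrk1, the TGFb libraries lay below all others, here by more than 20 CPM, and SIS3_TGFb overlapped Ctrl. Klrb1c fell in TGFb versus Ctrl by 0.31 (log2, SE 0.040, edgeR adjusted p = 1.5e-05). It rose in SIS3_TGFb versus TGFb, by 0.27 (SE 0.040, edgeR adjusted p = 7.5e-05). The difference between SIS3_TGFb and Ctrl was -0.04 (95% interval -0.13 to 0.04, edgeR adjusted p = 0.39), which bounds it but does not show that the levels were equal.

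Klrb1b lies near it at chr6:128813706-128826315, on the same strand (Entrez 80782), and encodes the inhibitory NKR-P1B, also known as NKR-P1D in C57BL/6 mice, whose ligand is Clr-b. Its level was 353, 355 and 343 CPM in SIS3_TGFb, 308, 295 and 299 CPM in TGFb, and 209, 209.8 and 223 CPM in Ctrl. The groups were again separate, but in the order opposite to that of Klrd1. Klrb1b rose by 0.49 in TGFb versus Ctrl (log2, SE 0.037, edgeR adjusted p = 3.3e-08), and was the one receptor of the 9 to rise there. SIS3_TGFb cells had still more, by 0.22 over TGFb (SE 0.036, edgeR adjusted p = 0.00017) and by 0.71 over Ctrl, which is 1.64-fold (SE 0.037, edgeR adjusted p = 2.0e-10).

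Because NK1.1 and NKR-P1B transcripts are alike, how reads were shared bears on these values. No 100-base window of Klrb1b occurs in another gene of the table, but 23.2% of its windows occur in Gm44511, a GENCODE gene model that is not a row of the table. For Klrb1c, 12.2% of windows occur in Gm44511 and 0.34% in Klrb1a. Counts of Klrb1b and of Klrb1c were not whole numbers in all 9 libraries. The same held in 8 libraries for Klri2, which has no shared window. Shared exact windows may thus miss part of the sharing of reads. When the counts of Klrb1b and Klrb1c were summed, the total rose by 0.16 in TGFb versus Ctrl (log2, edgeR adjusted p = 0.0020), by 0.24 in SIS3_TGFb versus TGFb and by 0.40 in SIS3_TGFb versus Ctrl. This sum was chosen after the values were seen.

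Klrb1f, the gene of NKR-P1F, a receptor for Clr-g, lies at chr6:129045837-129059724 on the plus strand (Entrez 232408) and was scarce. Levels were 2.95, 2.67 and 2.44 CPM in SIS3_TGFb, 4.25, 3.60 and 2.46 CPM in TGFb, and 3.34, 4.07 and 5.54 CPM in Ctrl. The spread within TGFb covered most of the distance between the outer groups. Klrb1f fell in SIS3_TGFb versus Ctrl, by 0.68 on the log2 scale (SE 0.224, edgeR adjusted p = 0.017). Without Ctrl replicate 3 the difference was -0.46 (adjusted p = 0.12), and without SIS3_TGFb replicate 3 it was -0.62 (adjusted p = 0.050), neither of which passed. In TGFb versus Ctrl the difference was -0.32 (95% interval -0.79 to 0.14, edgeR adjusted p = 0.28), and in SIS3_TGFb versus TGFb it was -0.36 (95% interval -0.85 to 0.13, edgeR adjusted p = 0.23).

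Klrg1 lies apart from the others on the same chromosome, at chr6:122270596-122282833 on the minus strand (Entrez 50928), and was the most abundant. It had 609.6, 581 and 539 CPM in SIS3_TGFb, 618, 590.5 and 621 CPM in TGFb, and 679, 668 and 660.3 CPM in Ctrl. Every treated library was lower than every Ctrl library, and the treated groups overlapped. Klrg1 fell by 0.13 in TGFb versus Ctrl (log2, SE 0.042, edgeR adjusted p = 0.022), a small fall that did not pass without Ctrl replicate 1 (adjusted p = 0.071), Ctrl replicate 2 (0.050) or TGFb replicate 2 (0.099). It fell by 0.21 in SIS3_TGFb versus Ctrl (SE 0.042, edgeR adjusted p = 0.00047). In SIS3_TGFb versus TGFb the difference was -0.08 (95% interval -0.17 to 0.01, edgeR adjusted p = 0.14), and it passed in 1 alternative, without SIS3_TGFb replicate 1 (-0.12, adjusted p = 0.043).

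Klre1 and Klri2 encode lectin-like chains that pair with each other; in rat, KLRE1 with KLRI2 is an activating receptor and KLRE1 with KLRI1 an inhibitory one. Klre1 (chr6:129559365-129585828, plus strand, Entrez 243655) had 28.9, 30.0 and 27.4 CPM in SIS3_TGFb, 20.1, 19.2 and 20.0 CPM in TGFb, and 25.0, 24.2 and 22.6 CPM in Ctrl. No groups overlapped, and the TGFb libraries were lowest. Klre1 fell by 0.27 in TGFb versus Ctrl (log2, SE 0.066, edgeR adjusted p = 0.0040), rose by 0.54 in SIS3_TGFb versus TGFb (SE 0.064, edgeR adjusted p = 7.5e-06), and was higher in SIS3_TGFb than in Ctrl by 0.27 (SE 0.062, edgeR adjusted p = 0.0020).

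Klri2 (chr6:129729041-129740484, minus strand, Entrez 320407) had 88.6, 88.7 and 78.7 CPM in SIS3_TGFb, 59.3, 49.4 and 51.7 CPM in TGFb, and 55.4, 50.4 and 54.3 CPM in Ctrl. The SIS3_TGFb libraries were all higher than the rest, and TGFb and Ctrl overlapped. Klri2 rose by 0.67 in SIS3_TGFb versus TGFb, which is 1.60-fold (SE 0.066, edgeR adjusted p = 1.1e-06), and by 0.68 in SIS3_TGFb versus Ctrl (SE 0.066, edgeR adjusted p = 3.5e-07). With TGF-β1 alone its difference from Ctrl was 0.00255 (log2, 95% interval -0.14 to 0.15, edgeR adjusted p = 0.98). Its inhibitory counterpart Klri1 was much lower, at 5.83 ± 1.21 CPM in SIS3_TGFb, 4.84 ± 0.236 CPM in TGFb and 5.51 ± 0.256 CPM in Ctrl (SD, n = 3), and did not pass (edgeR adjusted p from 0.19 to 0.68). In SIS3_TGFb versus TGFb Klri1 differed by 0.27, and without SIS3_TGFb replicate 3 by 0.42, which passed (adjusted p = 0.031).

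**Figure D2:**
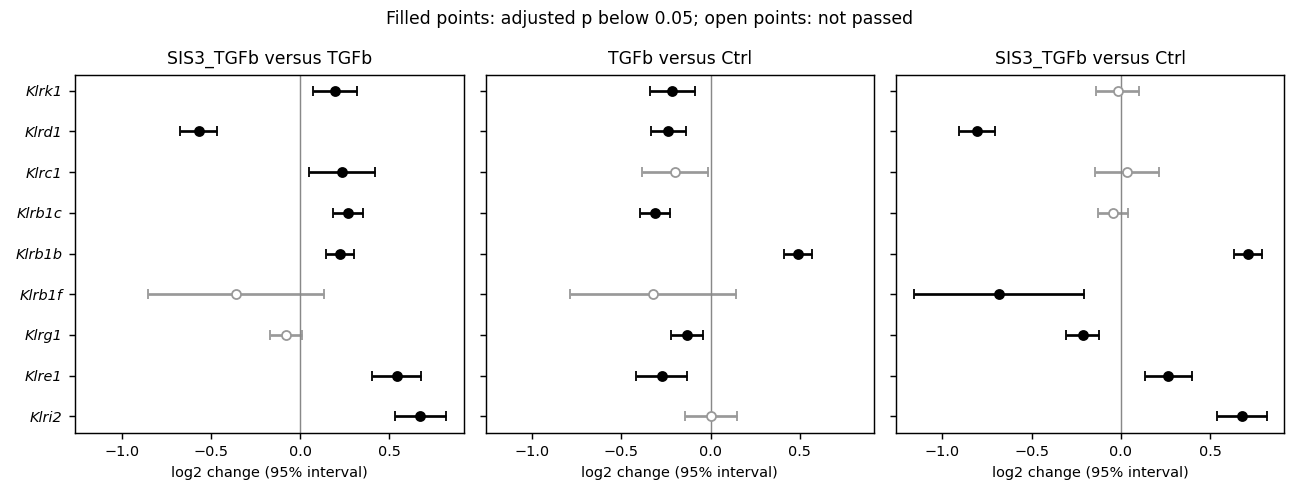
Log2 change of the 9 tested receptors (horizontal axis, with the 95% interval) in SIS3_TGFb versus TGFb, TGFb versus Ctrl and SIS3_TGFb versus Ctrl; filled points passed at an adjusted p below 0.05. Klrd1 lies left of 0 and Klrb1b right of 0 in every panel, and Klri2 lies at 0 in TGFb versus Ctrl and at 0.67 and 0.68 in the other panels.

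Levels of different genes were compared as CPM per kilobase of exon, from GENCODE M21 lengths, with neighbours in the order called apart where their libraries did not overlap. Klrg1 led in every group, at 408 CPM per kilobase in SIS3_TGFb, 431 in TGFb and 473 in Ctrl. Klrb1b was next in SIS3_TGFb (157) and in TGFb (135), but stood below Klrd1 in Ctrl (96.1). Klrd1 was at 66.3 in SIS3_TGFb, 98.3 in TGFb and 116 in Ctrl. Thus the inhibitory NKR-P1B message lay above that of CD94 per length in both treated groups and below it in Ctrl. Klrb1c stood at 71.1 CPM per kilobase in SIS3_TGFb, 59.0 in TGFb and 73.2 in Ctrl, and ranked above Klrd1 in SIS3_TGFb alone; with the longest transcript as length, its libraries overlapped those of Klrd1 there.

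Klrk1, Klre1, Klrc1 and Klri2 formed a middle tier, between 16.6 and 22.2 CPM per kilobase in SIS3_TGFb, 13.7 and 16.4 in TGFb, and 13.6 and 19.0 in Ctrl. In TGFb each of these overlapped its neighbour in the order. In SIS3_TGFb, Klre1 (22.2) and Klri2 (21.8) overlapped and lay above Klrk1 (18.8) and Klrc1 (16.6), which overlapped each other, while in Ctrl Klri2 was the lowest of the 4. Klrb1f had 1.58 CPM per kilobase in SIS3_TGFb, 2.02 in TGFb and 2.54 in Ctrl, and Klrc2 had 0.0847, 0.111 and 0.167 in the same groups. The order of the 10 genes was the same with the length of the longest transcript, though some of the overlaps differed. The lengths assume that the authors counted over these gene models, which the sources used here do not give.

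**Figure D3:**
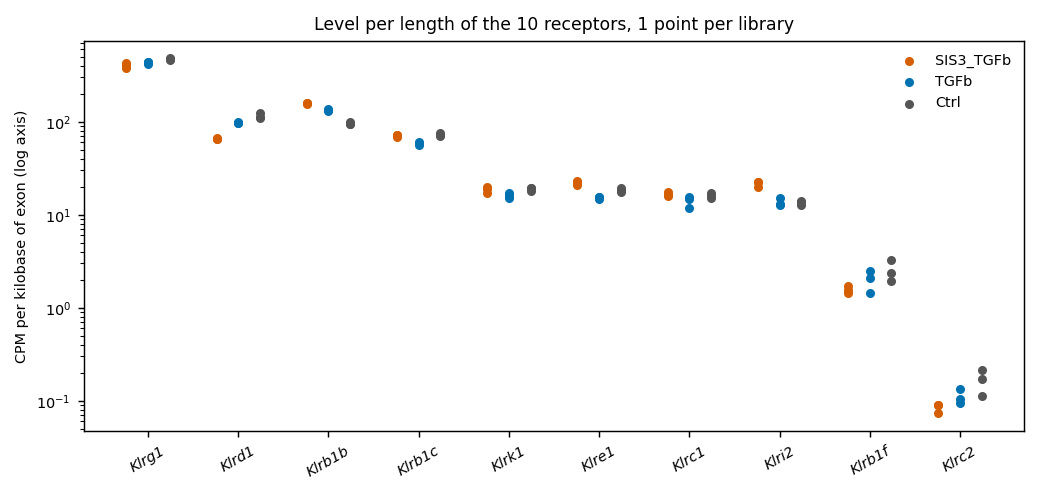
CPM per kilobase of exon (vertical log axis) of the 10 receptors in SIS3_TGFb, TGFb and Ctrl cells, with 1 point per library. Klrg1 is highest and Klrc2 lowest in each group, and Klrd1 and Klrb1b change places between Ctrl and the treated groups.

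Klrb1c to Klri2 lie within 0.96 megabases on chromosome 6 and Klrg1 lies outside, so that the 10 genes span 7.47 megabases. In the 0.96 megabases, 13 genes besides the receptors were tested. Of these, 2 rose and 2 fell in TGFb versus Ctrl (30.8%), 1 rose and 2 fell in SIS3_TGFb versus TGFb (23.1%), and 3 rose and 2 fell in SIS3_TGFb versus Ctrl (38.5%). These shares are below those over all genes tested, and this stretch was chosen after the positions were known. Over the whole 7.47 megabases, 84 other genes were tested, and 34.5% passed in TGFb versus Ctrl, 40.5% in SIS3_TGFb versus TGFb and 44.0% in SIS3_TGFb versus Ctrl. Genes close to each other moved in different directions: Klre1 rose and its annotated neighbour Klrd1 fell in SIS3_TGFb versus TGFb, and Klrb1b rose and Klrb1c fell in TGFb versus Ctrl. Olr1, a lectin-like scavenger receptor gene, had the largest log2 change of the tested genes between Klrb1c and Klri2 in TGFb versus Ctrl, with a mean of 1.38 CPM in SIS3_TGFb, 1.42 CPM in TGFb and 0.0619 CPM in Ctrl (1 count in each Ctrl library), and it passed there (edgeR adjusted p = 5.8e-06).

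**Figure D4:**
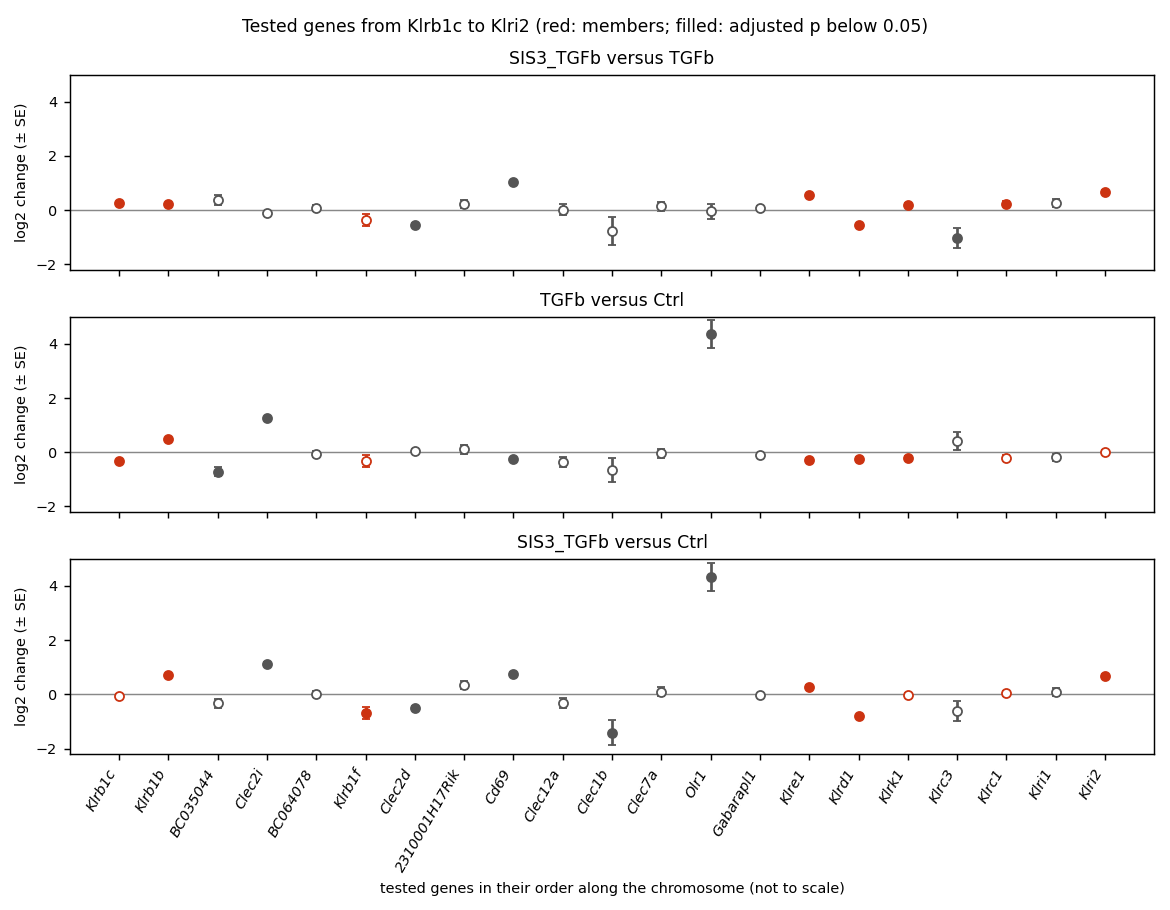
Log2 change (vertical axis, ± SE) of the tested genes from Klrb1c to Klri2 in their order along the chromosome (horizontal axis, not to scale) in SIS3_TGFb versus TGFb, TGFb versus Ctrl and SIS3_TGFb versus Ctrl; receptors are red and filled points passed. Rises and falls stand side by side, as for Klre1 and Klrd1 in SIS3_TGFb versus TGFb.

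A list of 7 further lectin-like genes, 6 of them named as killer cell lectin-like receptors and the other Cd69, had 5 tested: Klrc3, Klrb1, Klrb1a, Klri1 and Cd69. In TGFb versus Ctrl Klrb1a and Cd69 fell and none rose, in SIS3_TGFb versus TGFb Cd69 rose and Klrc3 fell, and in SIS3_TGFb versus Ctrl Cd69 rose and Klrb1a fell. Over all genes tested, 17.9% rose and 16.4% fell in TGFb versus Ctrl, and 21.2% rose and 20.6% fell in SIS3_TGFb versus TGFb. In SIS3_TGFb versus Ctrl 29% rose and 24.9% fell. None of the 4 Klr genes passed as a rise, which is little to read at these shares. Klrc3 and Klrb1 also averaged below 1 CPM in every group. Cd69, an activation marker encoded in the same complex, had 154 ± 10.2 CPM in SIS3_TGFb, 75.5 ± 6.32 CPM in TGFb and 90.6 ± 4.33 CPM in Ctrl (SD, n = 3). It fell by 0.26 in TGFb versus Ctrl (log2, SE 0.062, edgeR adjusted p = 0.0034) and rose by 1.03 in SIS3_TGFb versus TGFb (SE 0.060, edgeR adjusted p = 3.5e-09), with the same direction as Klre1 in both. Klrb1a, the gene of NKR-P1A, identical to Klrb1c at 92.5% of aligned coding bases, fell by 0.48 in TGFb versus Ctrl (SE 0.068, edgeR adjusted p = 4.0e-05) and by 0.30 in SIS3_TGFb versus Ctrl (adjusted p = 0.0012). In SIS3_TGFb versus TGFb Klrb1a differed by 0.18, with all SIS3_TGFb libraries above the TGFb libraries (edgeR adjusted p = 0.051). It passed there in 4 alternatives: with upper-quartile factors (0.049), without scaling factors (0.26, adjusted p = 0.0084), with the replicate number as a block (0.035) and without TGFb replicate 2 (0.22, adjusted p = 0.040). Klrc3 fell in SIS3_TGFb versus TGFb by 1.03 (SE 0.357, edgeR adjusted p = 0.030), at mean levels below 1 CPM in every group. That call did not pass with DESeq2 (adjusted p = 0.12) or without replicate 1, 2 or 3 of SIS3_TGFb or replicate 1 or 2 of TGFb (edgeR adjusted p from 0.053 to 0.105).

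Of the 17 listed ligands, 7 had enough counts to be tested. In TGFb versus Ctrl Clec2i and Cdh1 rose and none of the 7 fell. Ulbp1 differed there by -0.14 (log2, edgeR adjusted p = 0.060). It passed as a fall with upper-quartile factors (adjusted p = 0.014), without scaling factors (0.031) and without Ctrl replicate 2 (0.027). H2-T23 differed by -0.07 (edgeR adjusted p = 0.17) and passed as a fall with upper-quartile factors (-0.12, adjusted p = 0.034). Clec2i, which encodes Clr-g, a ligand of NKR-P1F, averaged 84.1 ± 2.02 CPM in SIS3_TGFb, 91.5 ± 5.34 CPM in TGFb and 38.6 ± 2.67 CPM in Ctrl (SD, n = 3), and rose by 1.25 in TGFb versus Ctrl (log2, SE 0.056, edgeR adjusted p = 5.5e-11). Its annotated span overlaps that of BC035044 on the other strand, and reads of the overlap cannot be told apart without strand. Cdh1, the gene of E-cadherin, a ligand of KLRG1, averaged 168 ± 13.7 CPM in SIS3_TGFb, 159.8 ± 10.3 CPM in TGFb and 66.0 ± 2.22 CPM in Ctrl, and rose by 1.28 (SE 0.061, edgeR adjusted p = 1.1e-10). In SIS3_TGFb versus TGFb Clec2i differed by -0.12 (edgeR adjusted p = 0.067), and it passed without TGFb replicate 3 (-0.16, adjusted p = 0.027) and with the RLE size factors (-0.13, adjusted p = 0.043). Cdh1 differed there by 0.07 (edgeR adjusted p = 0.32), and it passed when no scaling factors were used (0.16, adjusted p = 0.025), without SIS3_TGFb replicate 3 (0.14, adjusted p = 0.039) and without replicates 3 of both groups (0.17, adjusted p = 0.0061).

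In SIS3_TGFb versus TGFb 4 ligands fell and none rose. H60a, a ligand of NKG2D, had 23.4, 21.4 and 24.4 CPM in SIS3_TGFb, 43.1, 44.2 and 45.5 CPM in TGFb, and 44.1, 43.0 and 40.3 CPM in Ctrl. Its counts were not whole numbers in any library and may include reads shared with similar genes. H60a fell by 0.94 in SIS3_TGFb versus TGFb (log2, SE 0.061, edgeR adjusted p = 1.2e-08). Ulbp1, another ligand of NKG2D, fell there by 0.21 (adjusted p = 0.0064), but by 0.12 and without passing when no scaling factors were used (adjusted p = 0.081). Clec2d, whose product Clr-b is the ligand of NKR-P1B, averaged 42.7 ± 2.14 CPM in SIS3_TGFb, 62.6 ± 4.35 CPM in TGFb and 60.7 ± 5.98 CPM in Ctrl, and fell by 0.55 in SIS3_TGFb versus TGFb (SE 0.070, edgeR adjusted p = 1.5e-05). H2-T23, which encodes Qa-1, the ligand of CD94 with NKG2A, fell by 0.21 (SE 0.040, edgeR adjusted p = 0.00057), or by 0.13 without scaling factors (adjusted p = 0.014). In SIS3_TGFb versus Ctrl Cdh1 and Clec2i rose and these 4 fell. Over all genes tested, 17.9% rose and 16.4% fell in TGFb versus Ctrl, 21.2% and 20.6% in SIS3_TGFb versus TGFb, and 29% and 24.9% in SIS3_TGFb versus Ctrl. The median log2 change of the 7 tested ligands was 0.04 in TGFb versus Ctrl, -0.21 in SIS3_TGFb versus TGFb and -0.29 in SIS3_TGFb versus Ctrl, beside -0.00357, 0.0122 and 0.0200 over all genes tested.

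Of 18 adaptors and kinases of activating receptors, 4 rose and 7 fell in TGFb versus Ctrl, 2 rose and 7 fell in SIS3_TGFb versus TGFb, and 5 rose and 8 fell in SIS3_TGFb versus Ctrl. Over all genes tested the shares that passed were 34.3%, 41.8% and 53.9% in the same comparisons. Some of these calls did not pass in several alternatives, so the counts are not firm. The rises of Grb2 and Vav1 in SIS3_TGFb versus Ctrl did not pass with DESeq2 (adjusted p = 0.18 and 0.11). The fall of Cd247 in SIS3_TGFb versus TGFb did not pass without scaling factors (edgeR adjusted p = 0.26). Hcst, the gene of DAP10, which carries the signal of NKG2D, was low, with 10.1 ± 0.444 CPM in SIS3_TGFb, 10.8 ± 1.29 CPM in TGFb and 8.74 ± 2.09 CPM in Ctrl (SD, n = 3). Hcst differed by 0.30 in TGFb versus Ctrl and by 0.21 in SIS3_TGFb versus Ctrl without passing (edgeR adjusted p = 0.12 and 0.24). Without Ctrl replicate 2, its highest Ctrl library, it passed in both, at 0.52 (adjusted p = 0.0067) and 0.42 (adjusted p = 0.014). Tyrobp, the gene of DAP12, averaged 491 ± 6.95 CPM in SIS3_TGFb, 556 ± 38.5 CPM in TGFb and 577 ± 29.8 CPM in Ctrl. It fell by 0.18 in SIS3_TGFb versus TGFb (log2, SE 0.048, edgeR adjusted p = 0.0072), a fall that was 0.10 and did not pass without scaling factors (adjusted p = 0.069), and was 0.12 without replicates 3 of both groups (adjusted p = 0.046). In TGFb versus Ctrl Tyrobp differed by -0.05 (edgeR adjusted p = 0.42), and by -0.11 without TGFb replicate 3, which passed (adjusted p = 0.047). Fcer1g, an adaptor that NK1.1 uses, fell in SIS3_TGFb versus TGFb, by 0.27 (SE 0.034, edgeR adjusted p = 1.1e-05).

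Among the kinases and linkers, Pik3cd, a catalytic subunit of phosphoinositide 3-kinase, fell by 0.64 in TGFb versus Ctrl (log2, SE 0.046, edgeR adjusted p = 1.7e-08) and by 0.25 in SIS3_TGFb versus TGFb (SE 0.047, edgeR adjusted p = 0.00059), or by 0.17 there without scaling factors (adjusted p = 0.020). Plcg2, the phospholipase downstream of these receptors, fell by 0.35 and by 0.32 in the same comparisons (edgeR adjusted p = 1.2e-06 and 5.9e-06). Pik3r1, a regulatory subunit of the same kinase, fell by 0.38 in TGFb versus Ctrl and by 0.33 in SIS3_TGFb versus TGFb (edgeR adjusted p = 1.2e-05 and 7.2e-05). Fyn, a Src-family kinase, and Lat, a linker, rose in TGFb versus Ctrl by 0.39 and 0.70 (edgeR adjusted p = 2.2e-06 and 0.00081). Lcp2, the gene of the linker SLP-76, changed in the same directions as Klrk1, Klrb1c and Klre1: it averaged 98.8 ± 3.88 CPM in SIS3_TGFb, 74.7 ± 1.88 CPM in TGFb and 97.6 ± 3.48 CPM in Ctrl. Its fall was 0.39 in TGFb versus Ctrl (SE 0.044, edgeR adjusted p = 3.3e-06) and its rise 0.40 in SIS3_TGFb versus TGFb (SE 0.043, edgeR adjusted p = 2.7e-06). Syk, the kinase recruited by DAP12, rose by 0.38 in SIS3_TGFb versus TGFb (edgeR adjusted p = 0.0063), by 0.25 without TGFb replicate 3 (adjusted p = 0.016), and by 0.17 and without passing (adjusted p = 0.051) when replicates 3 of both groups were left out.

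All 3 phosphatases that inhibitory receptors recruit were tested and changed in TGFb versus Ctrl, where 2 rose and 1 fell. Over all genes tested, 34.3% passed in that comparison, 41.8% in SIS3_TGFb versus TGFb and 53.9% in SIS3_TGFb versus Ctrl. Inpp5d, the gene of SHIP1, averaged 232 ± 6.07 CPM in SIS3_TGFb, 264 ± 3.73 CPM in TGFb and 134 ± 4.07 CPM in Ctrl (SD, n = 3), and rose by 0.97 in TGFb versus Ctrl (log2, SE 0.036, edgeR adjusted p = 7.4e-12). Ptpn6, the gene of SHP-1, averaged 58.3 ± 1.23 CPM in SIS3_TGFb, 90.0 ± 6.45 CPM in TGFb and 53.6 ± 0.709 CPM in Ctrl. It rose by 0.75 in TGFb versus Ctrl (SE 0.051, edgeR adjusted p = 8.8e-09) and fell by 0.63 in SIS3_TGFb versus TGFb (SE 0.050, edgeR adjusted p = 1.1e-07). Ptpn11, the gene of SHP-2, fell by 0.25 in TGFb versus Ctrl (edgeR adjusted p = 0.00012) and by 0.16 in SIS3_TGFb versus TGFb (adjusted p = 0.0049), where without scaling factors it was 0.079 lower and did not pass (adjusted p = 0.12). Inpp5d also fell in SIS3_TGFb versus TGFb, by 0.19 (SE 0.035, edgeR adjusted p = 0.00061), or by 0.10 without scaling factors (adjusted p = 0.031). None of the 3 rose there. In SIS3_TGFb versus Ctrl Inpp5d rose, Ptpn11 fell and Ptpn6 did not pass (0.12, edgeR adjusted p = 0.066). Without scaling factors Ptpn6 passed in SIS3_TGFb versus Ctrl (0.18, edgeR adjusted p = 0.017).

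For each tested receptor, the genes most like it were those with the highest Pearson correlation of log2 CPM over the 9 libraries, given as a description, since the libraries fall into 3 groups and share depth and scaling. Klrb1b was most like Cab39 (r = 0.997), Agap1 (0.996) and Wdyhv1 (0.995). Klri2 was most like Rab6a (0.995), Epc1 (0.989) and Lef1 (0.988), and Klrd1 most like Metrnl (0.994), Acat1 (0.993) and Hmgcs1 (0.991). Klre1 was nearest to Rars (0.992), Sft2d2 and Bach2 (0.989 each), and Klrb1c to Slc38a2 (0.985), Cdc45 (0.981) and Ampd2 (0.973). The highest value was lower for the other 4 receptors: Klrb1f with Pdcd4 (0.979), Klrg1 with Syna (0.976), Klrc1 with Clu (0.956) and Klrk1 with Ugt1a7c (0.948). No other receptor of the 10 was among the 3 genes most like any one of them.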

How the data were processed

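Bone marrow-derived NK cells in 3 groups of 3 libraries were compared. The authors deposited 1 table of expected counts per gene (estimated counts, not scaled for depth): between 10.18% and 11.06% of the values of a library are not whole numbers. RSEM, Bowtie2, HISAT2, StringTie, Cufflinks and DESeq2 are named by the submitters' processing notes, with the builds mm10 and GRCm38. The sources used here give no versions, no roles and no annotation. Per the labels, reads were 100 bp pairs from 1 µg of poly-A selected RNA, and strand is not stated, so antisense or overlapping genes cannot be told apart.

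The 10 receptors and all gene lists were chosen with earlier results of these data known, so no count of them is independent support. Counts were rounded to whole numbers, filtered with filterByExpr (minimum count 10, minimum total 15), scaled with TMM and fitted over all 9 libraries, with 1 mean per group and no covariates, by the quasi-likelihood functions of edgeR 4.0.16 in R 4.3.3. Two-sided p-values had Benjamini-Hochberg adjustment over 12212 genes, with a threshold of 0.05 and no minimum fold. The common biological coefficient of variation was 4.53%. The SE was taken from the log2 change and the square root of F, and 95% intervals are not adjusted for the number of genes. The fit was tested on simulated data first. Genes named outside the receptors are, per list and comparison, up to 4 with the smallest p that passed and at most 2 in the opposite direction. The adaptors Hcst and Tyrobp, Grb2, Vav1, Cd247, Klri1 and Olr1 were added after their values were seen. Of the genes this rule takes, 1 is not reported here. Positions and promoters are from RefSeq (GRCm38.p6), and transcripts and lengths from GENCODE M21 (GRCm38). Alternatives were other scaling factors, no filter, DESeq2 1.42.0, limma voom 3.58.1, the groups of a comparison alone, a replicate block, each library left out and, chosen after seeing the data, sums of similar genes and both replicates 3 left out.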

Additional observations from a re-analysis of the deposited data

How the results depend on the processing

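The counts of receptors that passed held their direction and stayed within 1.5 times under all alternatives run. With each library left out in turn, 5 to 7 of the 9 receptors passed in TGFb versus Ctrl, 5 to 7 in SIS3_TGFb versus TGFb and 5 to 6 in SIS3_TGFb versus Ctrl, and over all genes 3571 to 3974, 4295 to 4697 and 5875 to 6291 passed. Deviations of same-numbered libraries correlated at -0.147 to 0.126, and those of differently numbered libraries at -0.163 to 0.145. With few libraries per group, this check cannot tell whether same-numbered libraries shared a culture. With a replicate block 6, 7 and 6 receptors and 3942, 4803 and 6346 genes passed in these comparisons. Without replicates 3 of TGFb and SIS3_TGFb, 6 receptors passed in TGFb versus Ctrl and 6 in SIS3_TGFb versus TGFb. DESeq2 called 3455, 4125 and 5705 genes. No receptor changed sign past the threshold. Of 408 receptor results under alternatives, 390 kept their side of the threshold, 15 lost it and 3 gained it, all for Klrg1, Klrk1, Klrc1 and Klrb1f. Besides those given above, the rise of Klrc1 in SIS3_TGFb versus TGFb did not pass without both replicates 3 (0.14, edgeR adjusted p = 0.16) or with Klrc1, Klrc2 and Klrc3 summed (0.20, adjusted p = 0.071). The share of higher calls was 41.3% with upper-quartile factors against 52.2% in TGFb versus Ctrl, and without scaling factors 71.1% against 50.6% in SIS3_TGFb versus TGFb and 63.8% against 53.8% in SIS3_TGFb versus Ctrl. Depth limits Klrc2 and Klrb1f. The cause of these differences was not tested.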
